A study of Mus musculus with 43 samples.

Results

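Fibroblasts of the Mbd3f/- line on their way to induced pluripotency were compared on days 5 and 6 of induction against days 3 and 4. The comparison holds 4 of the 43 poly(A) RNA-seq libraries of the series, 1 for each day. The libraries were chosen by their day alone. The values are FPKM, fragments scaled to transcript length and to the mapped fragments of the library. Of 38991 gene identifiers, 12920 reached an FPKM of 1 in 2 or more of the 4 libraries and were tested. Changes are differences of the mean log2(FPKM + 1) of days 5 and 6 minus that of days 3 and 4, which understates the change of weakly expressed genes.

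The cells were secondary mouse embryonic fibroblasts (MEF), which already carry a doxycycline-inducible cassette of Pou5f1, Klf4, Sox2 and Myc (OKSM), and came from 1 cell line labelled Mbd3f/-. Doxycycline (DOX) was given in FBS/LIF medium, that is, fetal bovine serum with leukaemia inhibitory factor, at 5% oxygen. On day 3.5, per the design text, this was replaced by serum replacement (KSR) medium with LIF and 2i, a pair of inhibitors of MEK and GSK3. Day 3 therefore precedes the change of medium and day 4 follows it, so the reference pair spans it. The growth protocol gives an earlier time for 2i, and the labels differ on this. All 4 libraries share DOX, LIF, low oxygen and a layer of irradiated human foreskin fibroblasts (HFF). Of the other systems, Gatad2a-/- cells of days 3 to 6 (4 libraries, same treatment) and the wild-type systems WT-1 and WT-2 (isogenic to Gatad2a-/-) on days 4 and 6 were used. Adjacent days stand in for replicates. Nothing in the labels says that they came from separate cultures, and p-values measure only the spread between these libraries, which includes the change from one day to the next.

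Mbd3 and Gatad2a are subunits of NuRD, a complex that joins nucleosome remodelling to histone deacetylation. Naive pluripotent cells are held by a network of transcription factors, among them Nanog, Esrrb, Tfcp2l1 and Prdm14, and by signals from LIF through Stat3. Blocking MEK removes a differentiation signal, and blocking GSK3 raises beta-catenin. During reprogramming, genes of fibroblast identity go down first and the naive network is switched on late.

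Mbd3 (ENSMUSG00000035478, chromosome 10 at 80392539 to 80399550, minus strand, GRCm38) was measured in every library. Its FPKM was 37.5 in MEF and 79.8, 57.5, 60.8 and 58.0 on days 3 to 6. Day 3 was the highest of the 4 days, and the pairs overlapped. The RNA counted may come from either allele, disrupted or not, so this check does not settle the genotype. Between 12268 and 12699 genes reached an FPKM of 1 in each of the 4 libraries, and their depth is unknown. Thy1, a surface marker of fibroblasts, was at 263 in MEF and at 5.78, 1.98, 0.956 and 1.33 on days 3 to 6, so its level had dropped before the window opened. All 37 mitochondrial genes were listed at 0, so a listed 0 can be a failed estimate.

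With only these 4 libraries, limma called 0 genes (0.0%) at an adjusted p under 0.05, the smallest adjusted p being 0.0703. At an unadjusted p under 0.05 there were 2533 genes (19.6%), 1612 higher (12.5%) and 921 lower (7.13%) on days 5 and 6. After quantile normalization that split was 1089 higher to 1230 lower, so 63.6% higher became 47.0%, and the median over all genes tested moved from 0.12 to 0.03. A fit of all days 1 to 8 in 4 pairs, which share 1 estimate of the spread, called 581 genes (4.50%): 437 rose (3.38%) and 144 fell (1.11%). The verbs rose and fell are kept for genes that passed in that fit, and each gene's SE and adjusted p are from it. Genes that reached an FPKM of 1 in only 1 pair of days had to be higher in that pair. Of the 437 genes that rose, 286 did not enter the test through days 5 and 6 alone. Of the 144 that fell, 105 still met the filter with day 3 or day 4 left out. For 2 libraries against 2, the smallest two-sided exact permutation p is 0.333, so no single gene can pass such a test.

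The spread came mostly from the reference pair. The median absolute difference in log2(FPKM + 1) was 0.160 from day 2 to 3, 0.359 from day 3 to 4, 0.380 from day 4 to 5 and 0.142 from day 5 to 6. From day 3 to 4, 445 genes were higher by at least 1 (3.44%) and 1070 lower (8.28%). From day 4 to 5, 1308 were higher (10.1%) and 458 lower (3.54%). Days 3 and 4 thus differed nearly as much as days 4 and 5, while days 5 and 6 were close. Without day 3, limma called 3365 genes (2735 higher, 630 lower). Without day 4 it called 2294 (1396 higher, 898 lower). Without day 5 it called 3 (Dppa5a, Snora61 and Snora78), and without day 6 it called 0. In those fits the lone library was assumed to vary like the other pair. Of all genes tested, 41.8% had their lowest level of the 4 days on day 4. A drop of at least 1 from day 3 to 4 followed by a gain of at least 1 from day 4 to 5 was seen in 565 genes (4.37%), and the opposite course in 182 (1.41%).

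**Figure D1:**
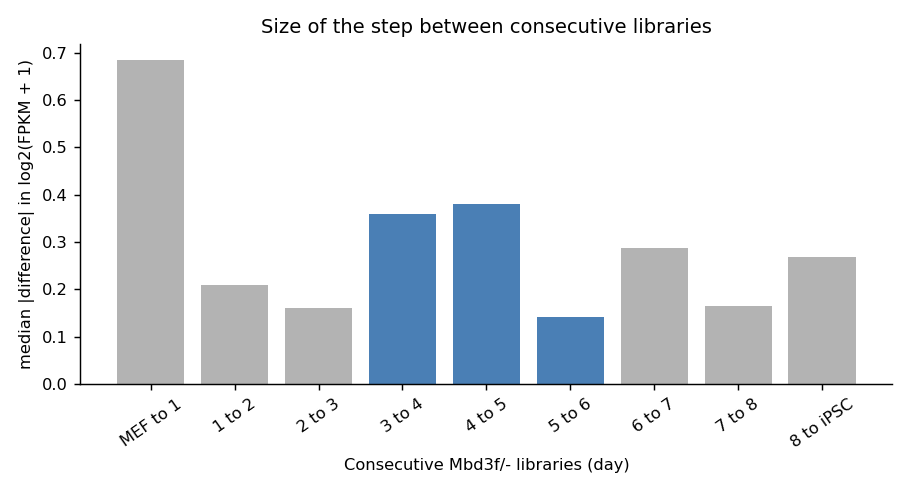
Bars give the median absolute difference in log2(FPKM + 1) over 12920 genes between consecutive Mbd3f/- libraries, with the steps inside the window in blue. The steps from day 3 to 4 (0.359) and day 4 to 5 (0.380) are each larger than the step from day 5 to 6 (0.142).

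The largest rises included genes of pluripotent cells. Dppa5a (ENSMUSG00000060461, chromosome 9 at 78367052 to 78368177, minus strand), an RNA-binding protein of early embryo cells, was at an FPKM of 0.472 and 1.28 on days 3 and 4 and at 34.5 and 208 on days 5 and 6. It rose by 5.56 ± 0.74 (SE, 2 libraries a pair; limma adjusted p = 0.0159). Dppa4 (chromosome 16 at 48283733 to 48294237, plus strand), a nuclear DNA-binding factor of pluripotent cells, went from 0.192 and 0.548 to 15.9 and 26.2 and rose by 3.98 ± 0.28 (adjusted p = 0.0029). For both genes days 5 and 6 lay far above days 3 and 4, and day 6 was the highest. Dppa4 entered the test through days 5 and 6 alone, and so had to be higher there. Among the 15 genes with the largest upward change that the naming rule took, 14 rose. They include Rhox5 (4.45 ± 0.56), an X-linked homeobox gene, Triml2 (3.91 ± 0.33), the piRNA-pathway homologue Gtsf1l (3.88 ± 0.48), the thyrotropin-releasing hormone gene Trh (3.45 ± 0.41) and Inpp5d (3.38 ± 0.46), which codes for the lipid phosphatase SHIP1. Mylpf, a myosin light chain of fast muscle, went from 3.95 and 7.85 to 91.5 and 178, and was at 253 in iPSC. Tex13, an X-linked testis gene, rose by 3.94 ± 0.30, while its level in iPSC was lower than on day 6 (8.38 against 27.4). Ly6g6c, the gene that did not pass (adjusted p = 0.080), was at 4.84 and 15.4, then 101 and 160, and back at 0.216 in iPSC.

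Of the 22 naive pluripotency factors listed, 17 were tested; 16 of them had both later days above both earlier days (background 35.1% of all genes) and 6 rose. Of the 17, 4 passed the filter on low values through days 5 and 6 alone, and so had to be higher there. Of the other 13, 12 had both later days higher (33.0% of all genes that passed otherwise) and 3 rose. The median change of the 17 was 1.60, against 0.12 over all genes. Esrrb (chromosome 12 at 86361117 to 86521628, plus strand), an orphan nuclear receptor of the naive network, was at 1.94, 5.74, 34.1 and 55.6 on days 3 to 6 and rose by 3.32 ± 0.43 (limma adjusted p = 0.0134). Zfp42 (Rex1), a zinc finger marker of naive cells, was at 7.42, 3.59, 50.5 and 79.0 and rose by 3.37 ± 0.42. It was lower on day 4 than on day 3, unlike Esrrb. Prdm14, a repressor of DNA methylation genes, was at 0.0618, 0.172, 4.57 and 6.29 and rose by 2.51 ± 0.23 (adjusted p = 0.0078). Tfcp2l1, a target of LIF signalling, rose by 2.43 ± 0.39, the orphan receptor Nr5a2 by 1.82 ± 0.36 and Tead4, a partner of YAP, by 1.38 ± 0.23. Nanog was at 14.6, 48.0, 97.4 and 147, a steady gain that did not pass (2.12 ± 0.69, adjusted p = 0.12); days 3 and 4 also differed. Klf5 was the 1 factor whose pairs overlapped, at 3.84, 2.26, 2.36 and 2.71. Tbx3 (1.08, 1.47, 1.76 and 4.53) and Klf2 (0.757, 0.297, 2.41 and 5.04) were still far below their iPSC levels of 56.4 and 60.6. On days 4 to 5 the median step of the list was 1.60, from day 3 to 4 it was -0.44, and 11 of the 17 had their lowest level on day 4.

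Other genes of pluripotent cells followed: of 31 tested, 27 had both later days higher (background 35.1%) and 1 had both lower. Of the 31, 16 rose (3.38% of all genes), with a median change of 1.67. Leaving out the 6 that passed the filter through days 5 and 6 alone, 21 of 25 had both later days higher and 11 rose. Of all genes that passed otherwise, 33.0% were higher on both later days. Dppa2, the partner of Dppa4 in the nucleus, was at 0.0892, 0.165, 6.27 and 6.80 and rose by 2.74 ± 0.21 (limma adjusted p = 0.0035). Fgf4, the growth factor that activates ERK in embryonic stem cells, was at 5.15, 4.66, 35.8 and 59.3 and rose by 3.00 ± 0.29. By day 6 it had reached its iPSC level of 53.8, as had Utf1, a chromatin factor (46.0 against 46.6). Dppa3 was at 11.9 on day 6 and 2.21 in iPSC, and Fbxo15 at 30.8 and 124, so the genes of this group stood at different distances from their end point. Trap1a, an X-linked gene of embryos and tumours, was at 0.147, 0.387, 6.26 and 20.0 and rose by 3.29 ± 0.46. In the Nodal family, the co-receptor gene Tdgf1 was at 1.55, 10.5, 34.6 and 74.3 and rose by 3.26 ± 0.66 (limma adjusted p = 0.043). The ligand-blocking gene Lefty2 (1.56, 3.32, 15.3 and 26.7) and the ligand gene Gdf3 (1.95, 2.57, 14.1 and 26.7) rose by 2.68 ± 0.39 and 2.66 ± 0.32. Nodal itself was at 2.75, 0.461, 7.43 and 7.72 and did not pass (adjusted p = 0.12). Id1 and Id3, targets of BMP signalling in the same list, had overlapping pairs: Id1 was at 182, 22.6, 61.6 and 26.9.

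**Figure D2:**
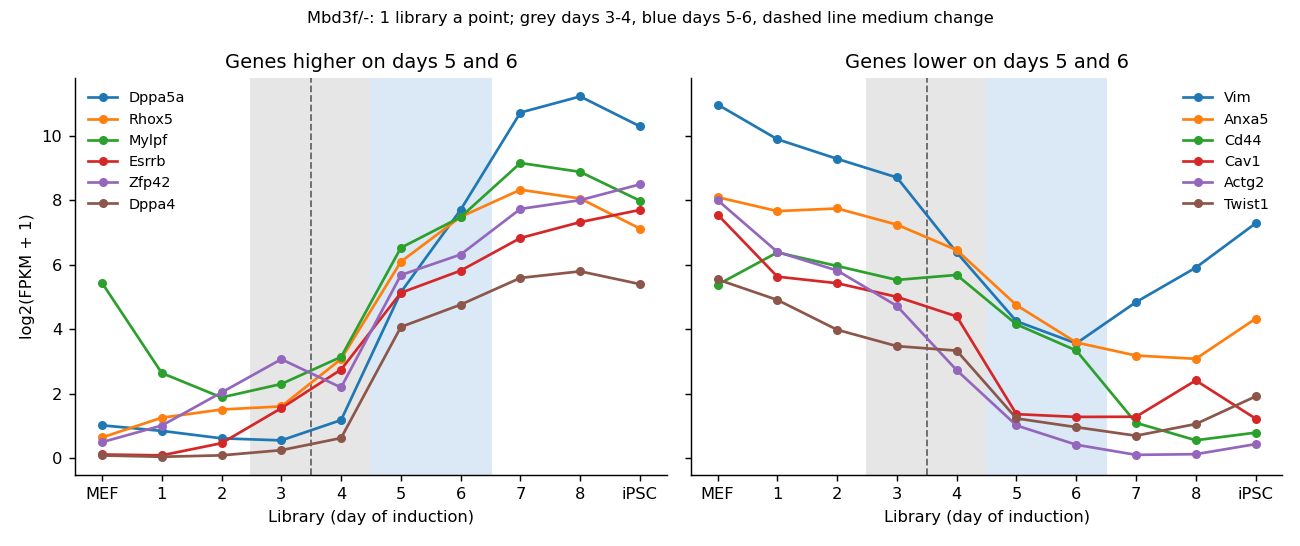
Levels in log2(FPKM + 1) of 6 genes higher and 6 genes lower on days 5 and 6, for each Mbd3f/- library from MEF to iPSC, with days 3 and 4 in grey, days 5 and 6 in blue and the change of medium on day 3.5 dashed. The steepest gains lie between days 4 and 5, and Vim declines from MEF to day 6 and is higher again in iPSC.

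The induced factors differed among themselves. FPKM of these genes may include RNA of the cassette. Pou5f1 was at 66.7, 304, 823 and 982 on days 3 to 6, higher on each following day, and did not pass (2.65 ± 0.86, limma adjusted p = 0.13). Sox2 was at 9.61, 8.54, 12.1 and 21.9, against 153 in iPSC. Klf4 stayed between 1.16 and 1.87 on the 4 days, and was at 81.8 in iPSC. Myc was under 0.5 on all 4 days and was not tested.

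Of 23 genes of germ cells 15 were too low to be tested. Of the 8 tested 6 rose (3.38% of all genes), but 3 of the 8 passed the filter through days 5 and 6 alone. Of the other 5, 4 had both later days higher (33.0% of all genes that passed otherwise) and 3 rose. Tex19.1 was at 2.59, 1.39, 32.2 and 35.2 and rose by 3.57 ± 0.34 (limma adjusted p = 0.0079). Piwil2, a piRNA-binding Argonaute protein, was at 0.223, 0.667, 8.20 and 10.9 and rose by 2.87 ± 0.25. Tdrd12, a Tudor protein of the same pathway, rose by 2.67 ± 0.31, the RNA-binding gene Dnd1 by 2.09 ± 0.27 and Rhox6, a neighbour of Rhox5 in the X-linked homeobox cluster, by 1.53 ± 0.20. Zfp57, which protects imprinted methylation, was at 51.7, 34.5, 179 and 187 and rose by 2.09 ± 0.27, while Dnmt3l, a cofactor of DNA methyltransferases, was at 0.0284, 0.137, 1.55 and 7.96 and did not pass (adjusted p = 0.065). Among 21 Polycomb genes 12 were higher on both later days (background 35.1%), 1 was lower and 4 rose. Cbx7, the main Cbx subunit of pluripotent cells (chromosome 15 at 79915807 to 79971119, minus strand), was at 5.37, 5.22, 32.2 and 42.7 and rose by 2.60 ± 0.32. Mtf2, an accessory subunit of PRC2, and Phc1, a subunit of PRC1, rose by 1.51 ± 0.24 and 1.39 ± 0.28, and Aebp2, another partner of PRC2, by 0.92 ± 0.18. In NuRD itself Chd3, a remodelling ATPase, was at 50.7, 47.5, 15.1 and 8.89 and fell by 1.99 ± 0.30, and Mta3 rose by 0.85 ± 0.18.

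Fibroblast genes went the other way. Of 27 collagen and matrix genes, 25 had both later days below both earlier days (background 19.8%), none had both higher, and 4 fell, with a median change of -1.32. Leaving out the 7 that passed the filter through days 3 and 4 alone, 18 of 20 had both later days lower (18.3% of all genes that passed otherwise). The basement membrane collagens Col4a1 (9.95, 7.58, 1.73 and 1.43) and Col4a2 (7.19, 5.06, 0.901 and 0.672) fell by 1.91 ± 0.27 and 1.98 ± 0.30 (limma adjusted p = 0.017 and 0.022). The microfibril gene Fbn1 fell by 1.87 ± 0.30 and the proteoglycan gene Dcn by 1.64 ± 0.31. Fn1, fibronectin, was the exception in direction at 19.7, 27.0, 25.9 and 43.8. Col3a1, a fibrillar collagen, was at 1265 in MEF, 34.1 on day 3 and 5.80 on day 6, lower at each step of the window, and did not pass. Of 12 fibroblast factors and receptors, 11 had both later days lower and 4 fell; of the 9 that did not pass the filter through days 3 and 4 alone, 8 had both later days lower. Twist1, a mesenchymal transcription factor (chromosome 12 at 33957671 to 33959829, plus strand), was at 10.2, 9.14, 1.36 and 0.956 and fell by 2.31 ± 0.32 (adjusted p = 0.017). Cd44, the hyaluronan receptor, was at 45.3, 50.6, 16.8 and 9.16 and fell by 1.86 ± 0.32. The homeobox gene Prrx1 (19.8, 19.3, 8.25 and 3.97) and the zinc finger repressor Zeb2 fell by 1.60 ± 0.29 and 1.24 ± 0.23. Vim, the intermediate filament of mesenchymal cells, was at 418, 82.6, 18.1 and 10.8 and had the largest downward change of any gene over 200 bases that the naming rule took (-3.64 ± 0.78). It did not pass (adjusted p = 0.059), and day 3 was well above day 4. Its level was 155 in iPSC, above all of days 4 to 6. In bulk samples such as these, fewer cells of a type and less RNA per cell cannot be told apart.

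Of the 15 genes with the largest downward change, 10 fell. Cav1, the coat protein of caveolae, was at 31.2, 20.2, 1.59 and 1.44 and fell by 3.38 ± 0.38 (limma adjusted p = 0.0096). Anxa5, an annexin, fell by 2.68 ± 0.39 and Mras, a small GTPase, by 2.46 ± 0.41. Hbb-y, an embryonic globin, was at 60.5, 67.0, 11.3 and 3.41, after 1.44 in MEF, and fell by 3.14 ± 0.51. Cited1, a transcriptional cofactor, was likewise higher on day 3 (36.7) than in MEF (0.452), and fell by 2.86 ± 0.58. Among smooth muscle genes, 7 of 9 were lower on both later days (background 19.8%) and 1, Actg2, fell (25.5, 5.65, 1.03 and 0.341). Of 13 Hox genes 10 were lower on both later days (background 19.8%). Leaving out the 3 that passed the filter through days 3 and 4 alone, 7 of 10 were (18.3% of all genes that passed otherwise). Hoxd13 and Hoxc8 fell by 1.52 ± 0.26 and 1.08 ± 0.19. Of the 15 largest rises 1, and of the 15 largest falls 3, are transcripts under 200 bases, which poly(A) libraries measure poorly; Rny1 and Snora61 are among them.

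Of 30 epithelial adhesion genes, 20 had both later days higher (background 35.1%), 4 had both lower and 2 rose. Leaving out the 3 that passed the filter through days 5 and 6 alone, 17 of 27 had both later days higher and 1 rose. Of all genes that passed otherwise, 33.0% had both later days higher. The median step of the list was 0.71 from day 3 to 4 and 0.36 from day 4 to 5. Epcam, an epithelial adhesion molecule, was at 3.78, 10.6, 21.3 and 35.7, and Cdh1, E-cadherin, at 10.6, 17.1, 29.1 and 36.4. Both increased at each step and neither passed (limma adjusted p = 0.057 and 0.26). Grhl2, a transcription factor of epithelia, was at 0.460, 0.627, 2.63 and 5.10 and rose by 1.61 ± 0.28. The keratin gene Krt18 rose by 1.88 ± 0.22 (2.10, 2.54, 9.37 and 13.3), while Krt19 was lower on both later days (38.1, 42.4, 6.94 and 17.1).

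Of 25 readouts of MEK-ERK signalling tested, 15 had their lowest level on day 4 (background 41.8%). Another 4 were lowest on day 3, 2 on day 5 and 4 on day 6. The median step was -0.92 from day 3 to 4 and 0.79 from day 4 to 5, against -0.12 and 0.19 over all genes. Only 1 gene rose. Dusp6, a phosphatase that feeds back on ERK, was at 4.11, 0.817, 4.89 and 3.35. Ier2, an immediate early gene, was at 40.8, 6.41, 32.9 and 34.4, and the feedback inhibitor Spry4 at 11.9, 2.24, 9.06 and 3.91. For these 3 genes the day 4 library was the lowest and the pairs overlapped. Etv5, an ETS factor, went further (28.5, 16.2, 70.6 and 69.3) and rose by 1.66 ± 0.31 (limma adjusted p = 0.037). Ccnd1, cyclin D1, did not come back: it was at 181, 50.3, 54.9 and 27.9. Of 7 WNT targets tested, 0 rose or fell; Lef1 was at 7.85, 6.07, 14.8 and 13.5, and Axin2, a direct target of beta-catenin, was under 0.15 on all 4 days. In the LIF list 5 of 14 genes were higher and 4 lower on both later days, shares near those of all genes (35.1% and 19.8%), and Tfcp2l1 was the 1 gene that rose.

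The day 4 low was shared by DNA replication genes, and less clearly by other growth genes. Of 28 DNA replication genes 22 were lowest on day 4 (background 41.8%), with a median step of -0.41 and then 0.42, and 1 rose. Of 28 mitosis genes 14 were lowest on day 4, near that background. Mcm10, a DNA replication factor, was at 55.6, 20.2, 54.7 and 51.8. Prim1, the primase subunit that rose, was at 52.9, 47.8, 81.9 and 82.8. Of 25 ribosome biogenesis genes 24 were highest on day 3 (background 33.7%). Of the same 25, 15 were lowest on day 4 and 10 on day 6 (background 41.8% and 20.5%). Ncl, nucleolin, was at 505, 283, 299 and 244, with its lowest level on day 6. Mat2a, which makes S-adenosylmethionine, showed the deepest day 4 low among the one-carbon enzymes, at 115, 9.59, 56.6 and 42.0. Ribosomal protein genes behaved in the opposite way on that day: 26 of 32 were highest on day 4 (background 19%), though the median change of the pairs was only -0.15. The sum of heat shock and nuclear RNA genes, kept as a sign of handling, was 1259, 1037, 1202 and 1176 on days 3 to 6; its part in the day 4 values was not tested.

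**Figure D3:**
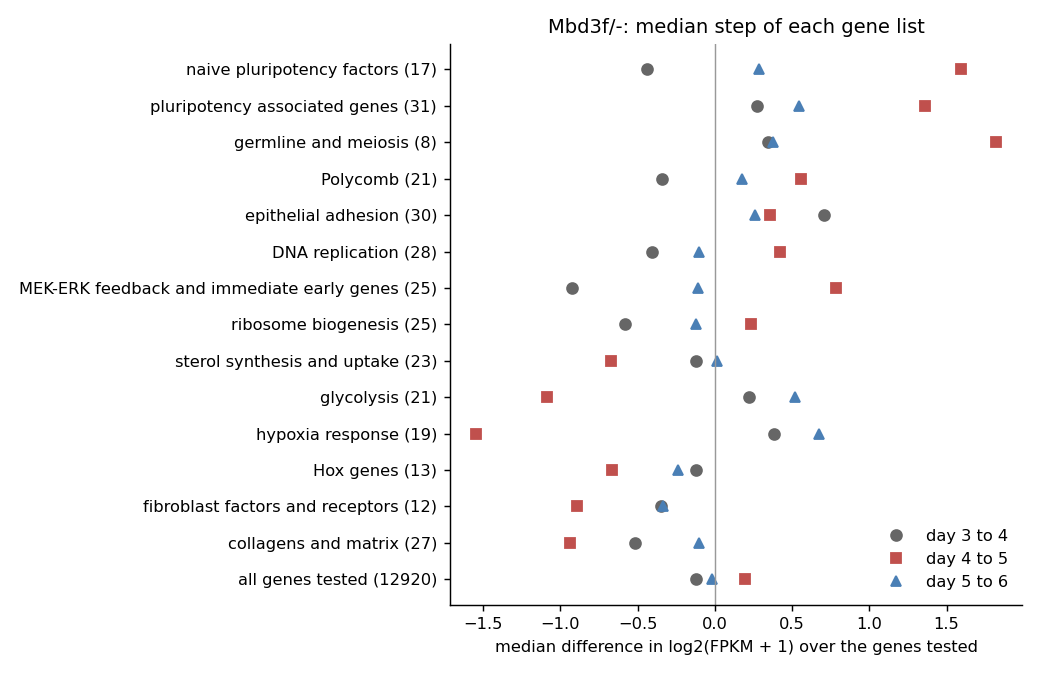
Points give the median difference in log2(FPKM + 1) between consecutive days over the genes tested in each list (number in brackets). Pluripotency lists gained mainly from day 4 to 5, and the glycolysis and hypoxia lists dropped on that step (-1.09 and -1.55) and regained part of it from day 5 to 6.

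Genes of sterol synthesis and uptake were lower on days 5 and 6. Of 23 tested, 20 had both later days lower (background 19.8%), none had both higher and 4 fell (1.11% of all genes). The median change was -0.82, against 0.12 over all genes. Sqle, squalene epoxidase (chromosome 15 at 59315077 to 59331192, plus strand), was at 86.7, 69.9, 39.7 and 39.4 and fell by 0.96 ± 0.20 (limma adjusted p = 0.045). Nsdhl, a dehydrogenase of the pathway, fell by 1.39 ± 0.29, and Aacs, which feeds acetoacetate into it, by 0.89 ± 0.18. Insig1, a sterol sensor, was at 38.1, 78.4, 15.6 and 21.7, and Hmgcs1, the synthase that commits acetyl-CoA to the pathway, at 112, 147, 54.3 and 60.3; neither passed (adjusted p = 0.067 and 0.059). Day 2, before the window, was lower than days 3 and 4 for both genes (13.6 and 48.6), so the earlier pair stood above its own past. Srebf2, the factor that drives these enzymes, had overlapping pairs (49.9, 86.7, 59.3 and 65.5). In Gatad2a-/- the median change of the pairs was -0.23 and 0 members had both later days below both earlier days (background 24.4%). On day 6, however, 22 of 23 were lower than on day 4 in Gatad2a-/- and 21 of 23 in Mbd3f/-, with medians of -1.03 and -0.66. Of all 12920 genes, 7809 and 4857 were lower, with medians of -0.15 and 0.18. Sqle was at 14.8, 35.7, 21.8 and 14.6 in Gatad2a-/-, with its peak on day 4.

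The promoter windows (250 bases before to 50 after the start, RefSeq, GRCm38.p6) were searched on both strands for TCACCCCAC, part of a sterol regulatory element. It was found in 1 of 19 windows of the list, against 0.551% of 32851 windows. That window, of Hmgcs1 (chr13:119690101-119690400, plus strand), is shown because it belongs to a gene of the group and carries the motif, in capitals, from base 114:
Hmgcs1: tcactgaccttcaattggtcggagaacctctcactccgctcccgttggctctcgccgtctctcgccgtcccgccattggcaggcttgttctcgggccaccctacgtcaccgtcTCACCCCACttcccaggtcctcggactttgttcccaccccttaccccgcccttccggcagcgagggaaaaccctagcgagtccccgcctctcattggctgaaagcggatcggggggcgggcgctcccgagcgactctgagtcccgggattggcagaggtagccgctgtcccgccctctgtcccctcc
A match is a description of the letters and not of binding.

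Glycolysis and hypoxia genes followed another course. Of 21 glycolysis genes 14 had both later days lower (background 19.8%) and 3 fell (1.11% of all genes). On day 5, 16 of the 21 had their lowest level (background 10.2%). Of 19 genes of the hypoxia response 12 had both later days lower (background 19.8%), 1 had both higher and 2 fell. Of the same 19, 15 were lowest on day 5 (background 10.2%). Slc16a3, the lactate exporter (chromosome 11 at 120948480 to 120960868, plus strand), was at 272, 237, 28.1 and 86.6 and fell by 2.34 ± 0.46 (limma adjusted p = 0.041). Gapdh (469, 477, 278 and 325) and Pgam1 (310, 299, 163 and 205), enzymes of the pathway, fell by 0.65 ± 0.13 and 0.73 ± 0.14. P4ha2, a collagen prolyl hydroxylase subunit, was at 21.6, 18.6, 1.53 and 4.89 and fell by 2.45 ± 0.49, and Higd1a, a mitochondrial protein induced by hypoxia, fell by 1.34 ± 0.27. Slc2a1, the main glucose transporter, was at 286, 298, 60.0 and 99.2, and Bnip3, a mitophagy receptor, at 68.0, 85.7, 11.6 and 52.3; both were lower on each later day and did not pass (adjusted p = 0.13 and 0.23). Pfkfb3, which raises the glycolytic activator fructose 2,6-bisphosphate, was at 16.5, 30.2, 3.56 and 6.28 (adjusted p = 0.052). For all these genes the day 5 library was the lowest and day 6 lay between it and the earlier pair. Slc2a3, another glucose transporter, ran against them at 35.6, 110, 83.2 and 192. All 4 days were kept at 5% oxygen, per the labels. Day 5 is 1 library, and its low values have no replicate check.

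**Figure D4:**
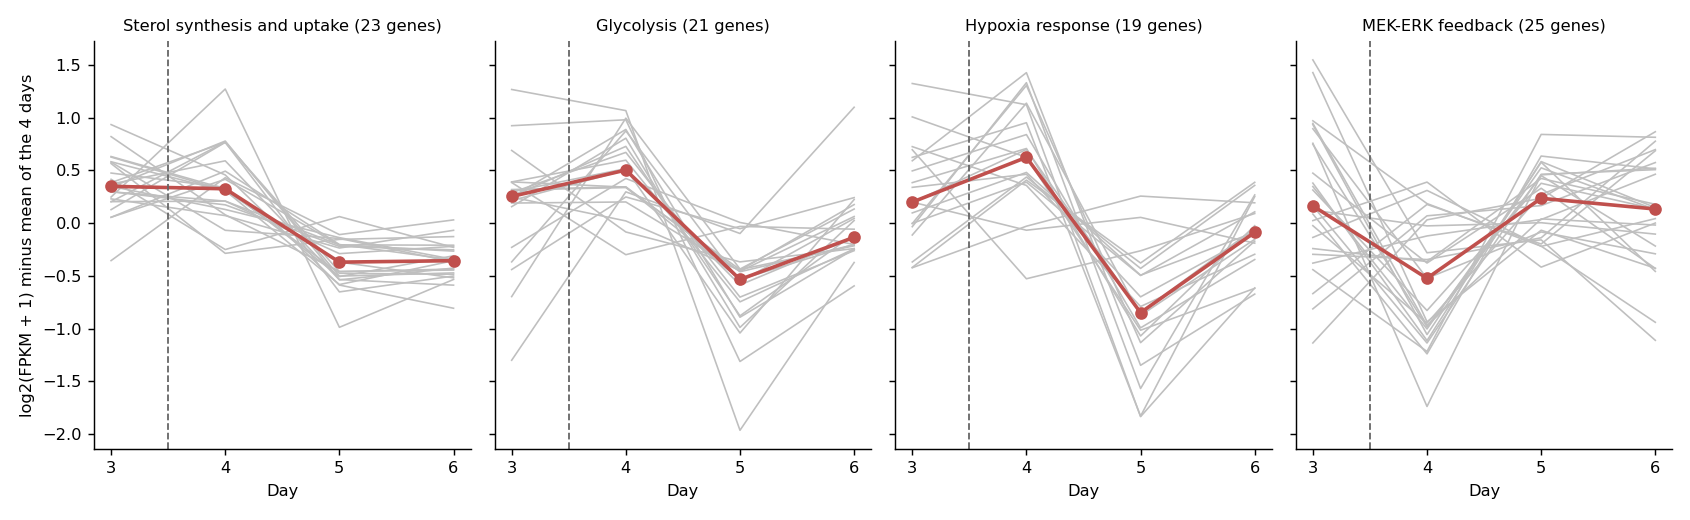
Each grey line is 1 gene, in log2(FPKM + 1) minus its mean of days 3 to 6, and the red line is the median; the change of medium on day 3.5 is dashed. Sterol genes were mostly lower on days 5 and 6, and most glycolysis and hypoxia genes were lowest on day 5. Of 25 MEK-ERK readouts 15 were lowest on day 4 (background 41.8%).

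The E-box CACGTG, searched in the same windows, was found in 3 of 25 windows of the hypoxia list (12.0%) and in 7.15% of all windows. It was also found in 4 of 19 sterol windows (21.1%), 2 of 6 germline windows (33.3%) and 3 of 31 glycolysis windows (9.68%). The pluripotency-associated windows held it in 3 of 31, and the naive factor and MEK-ERK windows in 0 of 16 and 0 of 21. As it reads alike on both strands, each match counts once. Those of Bnip3 (chr7:138909457-138909756, minus strand) and Pfkfb3 (chr2:11502041-11502340, minus strand) are given because both genes had the day 5 low, with the E-box in capitals:
Bnip3: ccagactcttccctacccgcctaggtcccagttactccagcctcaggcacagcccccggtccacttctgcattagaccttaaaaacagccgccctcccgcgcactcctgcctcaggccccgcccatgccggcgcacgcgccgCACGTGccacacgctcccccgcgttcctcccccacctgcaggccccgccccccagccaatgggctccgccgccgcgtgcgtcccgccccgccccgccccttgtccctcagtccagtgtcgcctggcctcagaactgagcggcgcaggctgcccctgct
Pfkfb3: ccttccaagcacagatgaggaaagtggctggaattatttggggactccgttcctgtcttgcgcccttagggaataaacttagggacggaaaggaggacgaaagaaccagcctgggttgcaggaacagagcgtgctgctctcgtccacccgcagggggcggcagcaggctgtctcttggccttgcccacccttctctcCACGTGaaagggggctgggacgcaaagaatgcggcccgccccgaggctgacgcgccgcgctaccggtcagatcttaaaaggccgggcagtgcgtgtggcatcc

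The same days of Gatad2a-/- cells, a separate line and table, were set beside these changes. Of the 437 genes that rose in Mbd3f/-, 399 were tested there; 381 changed in the same direction (95.5%, against 42.2% of all genes above 0) and 314 had both later days higher (78.7%, background 19.5%). Of the 144 that fell, 129 were tested, 123 had the same sign (95.3%) and 94 had both later days lower (72.9%, background 24.4%). Dppa5a was at 0.659, 3.97, 70.0 and 487 in Gatad2a-/-, Dppa4 at 0.104, 0.764, 17.0 and 39.3, and Twist1 at 18.5, 8.88, 3.46 and 0.989. The same order of days was seen in both lines for these 3 genes. In Gatad2a-/- limma called 33 genes (7 higher, 0.0429%, and 26 lower, 0.159%), 32 of them transcripts under 200 bases. Without 1 library it called 0 (day 3), 3 (day 4), 99 (day 5) or 0 (day 6). Among protein-coding genes alone it called 29, of which 23 were higher on days 5 and 6; 19 of these 23 were tested in Mbd3f/- and 15 rose there. The naive gains came earlier in Gatad2a-/-: Nanog was at 13.5, 99.1, 166 and 181 in Gatad2a-/-, and the median step of the naive factors was 1.52 from day 3 to 4, against -0.44 in Mbd3f/-. MEK-ERK readouts lowest on day 4 numbered 15 of 25 in Mbd3f/- (background 41.8%) and 2 of 25 in Gatad2a-/- (background 23.6%). Dusp6 was at 4.18, 10.9, 4.30 and 3.98 in Gatad2a-/-. Glycolysis genes lowest on day 5 numbered 0 of 21 (background 8.09%), against 16 of 21 in Mbd3f/-. These differences by day rest on 1 library a day in each line and were not tested.

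The difference between the systems in the change of the pairs was tested itself. It was called for 64 genes, 41 in the positive direction (0.241%) and 23 in the negative (0.135%), and 59 of the 64 were transcripts under 200 bases. The FPKM of all genes summed to 2432575 on day 5 and 10044674 on day 6 in Gatad2a-/-, and to 650805 and 652647 in Mbd3f/-. Transcripts of 200 bases or more made up 666548 of the day 6 sum in Gatad2a-/- and 621311 in Mbd3f/-. The part of this gap in the calls was not tested. Leaving out 1 library gave 33, 23, 23 and 23 calls without days 3 to 6 of Mbd3f/-, and 12, 14, 172 and 7 without days 3 to 6 of Gatad2a-/-. Among protein-coding genes alone it was called for 1 (0.00821%), the predicted gene Gm3625. Cml3, a member of a family of acetyltransferase-like genes, was at 1.02, 0.811, 8.54 and 9.96 in Mbd3f/- and between 0.421 and 0.946 in Gatad2a-/-. Rny1, a Y RNA, was listed at 0 on days 3 and 4 and at 42.8 and 54.3 on days 5 and 6 in Mbd3f/-, and between 1238 and 1676 in Gatad2a-/-. None of the listed genes of pluripotency, fibroblasts, sterol synthesis or glycolysis was called for a difference.

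Wild-type libraries of days 4 and 6 allowed a comparison at matched days, with 1 library a day and no test. Over the pluripotency-associated genes, the median of day 6 minus day 4 was 2.06 in Mbd3f/-, 1.78 in Gatad2a-/-, -0.08 in WT-1 and 0.0 in WT-2. For collagens and matrix it was -1.21, -0.47, 0.52 and -0.17. Glycolysis genes were lower on day 6 than on day 4 in 18, 14, 20 and 18 of 21 members, in the same order. Their medians were -0.63, -0.25, -1.31 and -1.83. Of all 12920 genes tested, 4857, 7809, 7306 and 6910 were lower, with medians of 0.18, -0.15, -0.04 and -0.03. The glycolysis values of Gatad2a-/- were thus near those of all genes. In the cell cycle lists all 28 mitosis genes and all 28 DNA replication genes were lower on day 6 in both WT-1 and WT-2, while in Mbd3f/- 6 and 1 of 28 were and in Gatad2a-/- 8 and 16 of 28. The mitosis medians were 0.26 in Mbd3f/-, 0.22 in Gatad2a-/-, -0.65 in WT-1 and -1.69 in WT-2. The replication medians were 0.35, -0.03, -0.49 and -1.0 in the same order. Gatad2a-/- lay near 0, and its 16 of 28 was near the share of all genes. Of the 437 genes that rose in Mbd3f/-, 10 were higher by at least 1 on day 6 than on day 4 in WT-1 and 5 in WT-2 (background 0.999% and 1.49%). Of the 144 that fell, 14 and 12 were lower by at least 1 (background 1.32% and 3.57%). Each difference is within 1 table, since the tables were normalized separately.

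**Figure D5:**
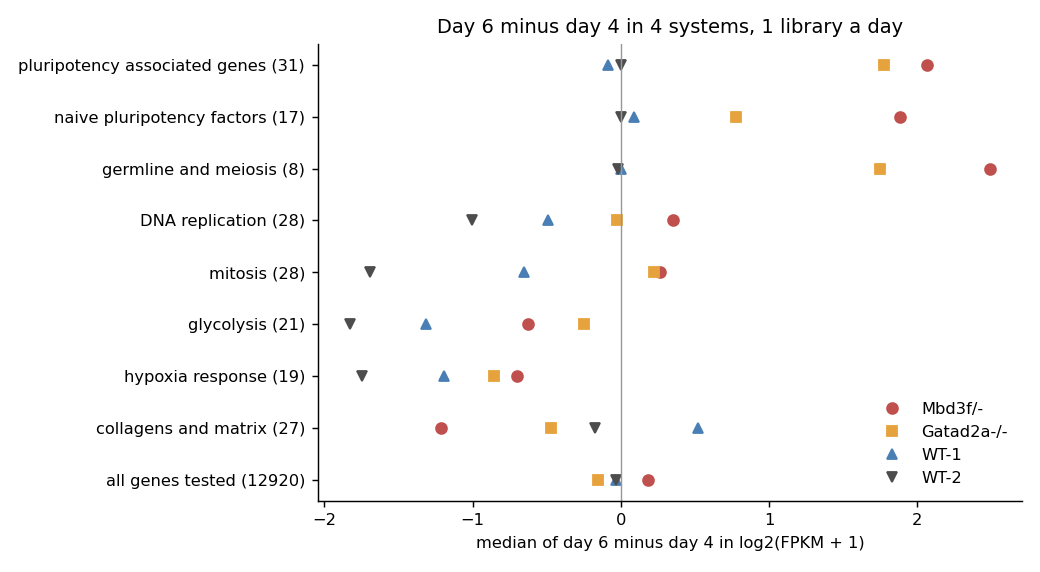
Points give the median of day 6 minus day 4 in log2(FPKM + 1) for each list and system, over the genes tested in Mbd3f/- (number in brackets). In WT-1 and WT-2 the replication, mitosis, glycolysis and hypoxia lists lie below 0 and the pluripotency lists near 0.

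Markers of other cell types were few. Of 14 macrophage and blood markers 3 were tested, and none of the 3 passed. Lyz2, lysozyme, was at 719 in MEF and at 35.3, 7.26, 2.22 and 0.952 on days 3 to 6. The lysosomal genes Cd68 (4.53, 11.4, 8.45 and 19.03) and Laptm5 (11.2, 20.2, 26.2 and 26.6) ran the other way, after 107 and 43.1 in MEF. The summed FPKM of the list was 72.9, 41.2, 38.2 and 47.0. Of 9 endothelial markers 2 were tested, 1 higher and 1 lower on both later days. Pecam1, which pluripotent cells also express, was at 0.196, 0.790, 3.51 and 6.47 and rose by 1.99 ± 0.33 (limma adjusted p = 0.028). It passed the filter through days 5 and 6 alone, and so had to be higher there. Tek, the other marker, had a change of -1.14 and did not pass (adjusted p = 0.058). Skeletal muscle markers summed to 7.84, 12.3, 99.7 and 186, nearly all of it Mylpf. Neural markers summed to 15.5, 13.9, 14.7 and 14.7. The part of other cells in the results above was not tested.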

How the data were processed

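Poly(A) RNA was measured in 1 library a day. Per the submitters' processing notes, CASAVA 1.8.2, TopHat2 2.0.10 and Cufflinks 2.2.1 were used with the genome build mm10. The authors deposited 1 FPKM table for each system. The sources used here do not name the annotation release. The labelled kit does not mark strand, so FPKM of genes that overlap, are antisense to each other or have near-identical copies are uncertain. Whole reads were not recovered from the FPKM, so depth and counting error are unknown. Rows that share 1 of 19 gene identifiers were summed, and 0 value columns lacked a sample. Coordinates come from the GRCm38 annotation, which matched 98.8% of the genes tested.

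FPKM values were taken to log2(FPKM + 1) and fitted with limma 3.58.1 in R 4.3.3 (eBayes with trend and robust, Benjamini-Hochberg, threshold 0.05). The pairs of days gave 2 residual degrees of freedom, and all days 1 to 8 in 4 pairs gave 4. The fit was tested on simulated data whose spread depended on the level alone, so it checks the code and not the power of the real fit. Alternatives were the pseudocount (0.1 and 5), the filter on low values, quantile normalization, eBayes without trend and robust, leaving out each library, the shared spread and, added after seeing the data, protein-coding genes only.

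The members and the 44 gene lists were chosen with earlier results of these data known, so counts over lists are descriptions and no list was tested as a set. Named genes were the 15 largest changes in each direction among genes past the adjusted threshold, with an FPKM of at least 5 in the higher pair and no overlap of the pairs. Places not filled went to genes at an unadjusted p under 0.05, and here all 30 did. Predicted and clone names were left out. Up to 4 members of each list in each direction, Mbd3, the induced factors and the largest differences between the systems were candidates as well. Dusp6, Ier2, Spry4, Srebf2, Sqle, Lef1, Axin2, Thy1, Cdh1, Nanog, Cd68, Laptm5 and further members that passed the test were chosen after their values were seen. A further gene is not reported here.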

Additional observations from a re-analysis of the deposited data

Results flagged for a closer look

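The change from days 3 and 4 to days 5 and 6 differed between Mbd3f/- and Gatad2a-/- in a test of the difference itself for 3 of the genes named. The acetyltransferase-like gene Cml3 had a change that was 2.66 ± 0.33 (SE, limma adjusted p = 0.028) higher in Mbd3f/-. Its FPKM in Mbd3f/- was back at 0.928 in iPSC. Rny1, a Y RNA, had a change 5.83 higher in Mbd3f/- (adjusted p = 0.0014), where both later days lay above a listed 0, while its level in Gatad2a-/- was above 1000 on all 4 days. Snora61, a small nucleolar RNA, was at 75.1, 102, 0.981 and about 0 in Mbd3f/- and at 69.8, 31.1, 41.6 and 55.2 in Gatad2a-/-, a difference of -6.01 (adjusted p = 0.017). Rny1 and Snora61 are transcripts under 200 bases. On day 6 the FPKM of all genes summed to 10044674 in Gatad2a-/- and to 652647 in Mbd3f/-. With protein-coding genes alone, the difference for Cml3 was not among the calls.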

How the results depend on the processing

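Depth is unknown and each day is 1 library, and a missed call does not show that a gene did not differ. No paired analysis was possible because the labels give the days no replicate numbers that pair them. In Mbd3f/- the count of calls at an adjusted p under 0.05 was 0 as reported, 1 (Rny1) with a pseudocount of 0.1, 581 with all days 1 to 8 in 4 pairs, and 0 to 3365 when each library was left out. In Gatad2a-/- the count of 33 became 1 with a pseudocount of 5, 0 with no filter on low values (the cause was not tested), 17 with a filter at an FPKM of 5, 78 with all days and 0 to 99 when each library was left out. The difference between the systems was called for 64 genes as reported, 27 with the filter at 5, 1 with protein-coding genes only and 7 to 172 without each library in turn. The other settings kept each count within 1.5 times, or at 0. Of 110 named genes, 71 passed with all days in 4 pairs. That fit leaves every change as it was, so no gene could reverse in it. Some of the 110 were chosen after they had passed. Quantile normalization reversed 2, Klf4 (-0.18) and Spry4 (-0.12). Leaving out each library in turn reversed 11 genes, all with overlapping pairs. Their changes ranged from -0.014 to 1.48 for Dusp6, -2.13 to 0.83 for Id1, -2.71 to 0.70 for Id3 and -0.27 to 2.23 for Ier2. They ranged from -0.18 to 0.24 for Klf4, -0.46 to 0.11 for Klf5, -1.22 to 2.23 for Mat2a and -0.42 to 0.045 for Mbd3. For Mcm10 the range was -0.062 to 1.35, for Spry4 -0.87 to 1.12 and for Srebf2 -0.47 to 0.32.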

Other observations

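In 4 further lists 1 gene each passed the test, a number near the 4.50% called over all genes. Of 11 genes of fatty acid synthesis, 7 were lower on both later days (background 19.8%); Fads2, a desaturase, was at 40.3, 42.9, 17.3 and 17.5 and fell by 1.21 ± 0.22 (SE, limma adjusted p = 0.034). Of 17 one-carbon enzymes, Amt, a subunit of the glycine cleavage system, was at 3.64, 6.88, 18.1 and 27.4 and rose by 1.95 ± 0.32. Of 17 imprinted genes 8 were lower and 3 higher on both later days (background 19.8% and 35.1%). Peg10, a retrotransposon-derived gene, was at 38.7, 28.1, 12.3 and 6.78 and fell by 1.74 ± 0.34. Among 15 interferon-stimulated genes, Xaf1 was at 18.6, 11.4, 43.8 and 42.4 and rose (limma adjusted p = 0.034).

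In 3 other lists 0 genes rose or fell. The median change was -0.14 over 18 genes of p53, cell cycle inhibitors and senescence, -0.12 over 30 genes of oxidative phosphorylation and -0.09 over 12 genes of the NRF2 and glutathione list. At an unadjusted limma p under 0.05 there were 2, 3 and 1, against 19.6% of all genes. Both later days were lower for 5 of 18, 15 of 30 and 3 of 12 genes, against a background of 19.8%.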
